A study of Mus musculus with 23 samples.

Results

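The growth factors of the EGF family were examined in mouse embryonic fibroblasts that carried oncogenic Ras. The rule took every array probe set annotated with the single gene symbol Hbegf, Areg, Ereg, Tgfa, Btc or Nrg1. It found 9 probe sets for 5 of the 6 genes, out of 45037 probe sets and 18193 genes in all: 3 for Tgfa, 2 each for Hbegf and Btc, and 1 each for Ereg and Nrg1. Areg was not analysed here.

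EGF family ligands are made as membrane-bound precursors, and ADAM proteases release the soluble growth factor. TGF-alpha and amphiregulin bind the EGF receptor, HB-EGF, betacellulin and epiregulin bind the EGF receptor and ERBB4, and neuregulin-1 binds ERBB3 and ERBB4. The activated receptors signal through Ras to the ERK kinases, and cells with oncogenic Ras are known to make several of these ligands themselves, which then act on the cell that released them.

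RNA was measured on 23 oligonucleotide arrays, 1 per sample, and every culture carried a retrovirus with H-Ras V12, the activated form of H-Ras. The study asked what the activation domains of the tumour suppressor p53 do under Ras, which brings on senescence in fibroblasts with wild-type p53 and not in p53-null ones. Mutant p53 alleles were knock-ins behind a stop cassette (LSL), which is silent until Cre recombinase, supplied by an adenovirus, removes it. Levels are the deposited RMA values (robust multi-array average, a background-corrected and normalized summary of a probe set) taken to log2, so a difference of 1 is a doubling.

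The 25,26 group (n = 5) carried the substitutions L25Q and W26S in the first activation domain, W53Q and F54S changed the second domain of the 53,54 group (n = 3), and QM (n = 3) had all 4 substitutions, each with Cre virus. The WT group (n = 6) joined 3 LSL-WT cultures with Cre virus and 3 WT cultures with Cre virus. The Null group (n = 6) joined 3 LSL-WT cultures with Empty virus, in which the cassette stayed in place, and 3 p53-null cultures with Cre virus. The background was 129/Sv for 14 arrays and 129/Sv/C57BL6 mixed for 9, with both present in each of these groups. Within Null, the 3 p53-null cultures were all 129/Sv. The genotype label of WT replicate 6 reads LSL-WT although its title reads WT, and that of Null replicate 6 adds the word knock-in. The design text calls the replicates biological samples without saying whether embryos or cultures were separate, so p-values measure only the spread between these samples.

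Array medians ranged from 59.9 to 64.22 in linear intensity. All 9 fibroblast markers with a probe set were past the filter on low values, which asked for at least 3 arrays above a log2 level of 4.79, and their mean log2 level was 11.82 or more in every array. Of the probe sets of other cell types, Ptprc and Itgam (leukocytes) and Pecam1 (endothelium) did not pass the filter. The other markers with a probe set did: 9 of 9 epithelial, 4 of 4 Schwann or neural, 5 of 7 macrophage and 3 of 4 endothelial. The X-inactivation transcript Xist exceeded a log2 level of 8 in 1 of 6 Null, 2 of 3 QM, 4 of 5 25,26, 1 of 3 53,54 and 4 of 6 WT arrays. Arrays with the same number in their titles deviated from their group means together, so values from a fit that blocks on this number are given where they change a call.

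Tgfa lies on chromosome 6, Nrg1 on chromosome 8, and Ereg, Areg and Btc stand next to each other on chromosome 5 beside another family member, Epgn, in the RefSeq annotation of the mouse assembly GRCm38.p6. The 66 bases that precede the first annotated start of Tgfa are shown because Tgfa had the largest group difference among the members. The strand is plus, the build is GRCm38.p6 and the position is chr6:86194972-86195037.
Tgfa: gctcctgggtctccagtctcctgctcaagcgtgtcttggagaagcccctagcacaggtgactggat
Both strands were searched for a GC box (GGGCGG), an AP-1 site (TGANTCA), a CRE (TGACGTCA), a TATA box (TATAAA) and the p53 decamer, whose match would be in capitals, and none was found in this stretch. The whole RefSeq window of Tgfa, from 250 bases before to 50 after a start, held 2 GC boxes, a motif found in 35.7% of 32851 such windows, and none of the other motifs. The p53 decamer was present in 8.36% of the windows. These matches are letters in a window and say nothing on binding.

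Tgfa and Nrg1 were the members whose levels differed among the 5 p53 groups, Tgfa in its probe set 1421943_at only. Each was higher with wild-type p53 than without p53, each had an intermediate mean in the 53,54 mutant, and neither was distinguishable from Null in the 25,26 or the QM mutant. One of the Hbegf probe sets was also higher with wild-type p53, with a call that several left-out arrays ended. Ereg and Btc showed no difference that passed the test in any comparison made. The moderated F test of limma over the 5 groups called 2 of the 9 probe sets at an adjusted p of 0.05, against 15.4% of the 33942 probe sets tested. Blocked on the title number, it called 4 of the 9, and its calls over all 33942 probe sets rose from 5234 to 9662. The 2 Hbegf probe sets were the added ones, with limma adjusted p-values of 0.0137 and 0.00883.

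Tgfa encodes TGF-alpha, a ligand of the EGF receptor that transformed fibroblasts are known to secrete. For its probe set 1421943_at the 6 Null arrays had log2 levels of 5.63, 5.38 and 5.68 with Empty virus and of 5.18, 5.38 and 5.67 in p53-null cells. The 6 WT arrays had 6.31, 5.97 and 7.24 in LSL-WT cells with Cre virus and 7.51, 6.89 and 6.83 in WT cells. Every WT array lay above every Null array, and the WT arrays spread more widely.

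The QM arrays had Tgfa levels of 5.55, 5.50 and 5.46, and the 25,26 arrays had 5.60, 5.62, 6.00, 5.36 and 5.81. The 53,54 arrays, numbered 2 to 4, had 5.69, 6.33 and 6.02. The QM arrays lay inside the range of Null. All 53,54 arrays lay above the highest Null array, the lowest of them narrowly, and the highest 25,26 array reached above the lowest WT array.

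Group means of Tgfa 1421943_at stood in the order Null, QM, 25,26, 53,54 and WT, with log2 means of 5.49 ± 0.21 (SD, n = 6), 5.50 ± 0.05 (n = 3), 5.68 ± 0.24 (n = 5), 6.02 ± 0.32 (n = 3) and 6.79 ± 0.57 (n = 6). In linear intensity the Null mean was 45.2 and the WT mean 118, so the Null level lay below the median intensity of every array. No step between neighbours in this order passed the test. The F test gave a limma adjusted p of 2.34e-04 for this probe set.

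**Figure D1:**
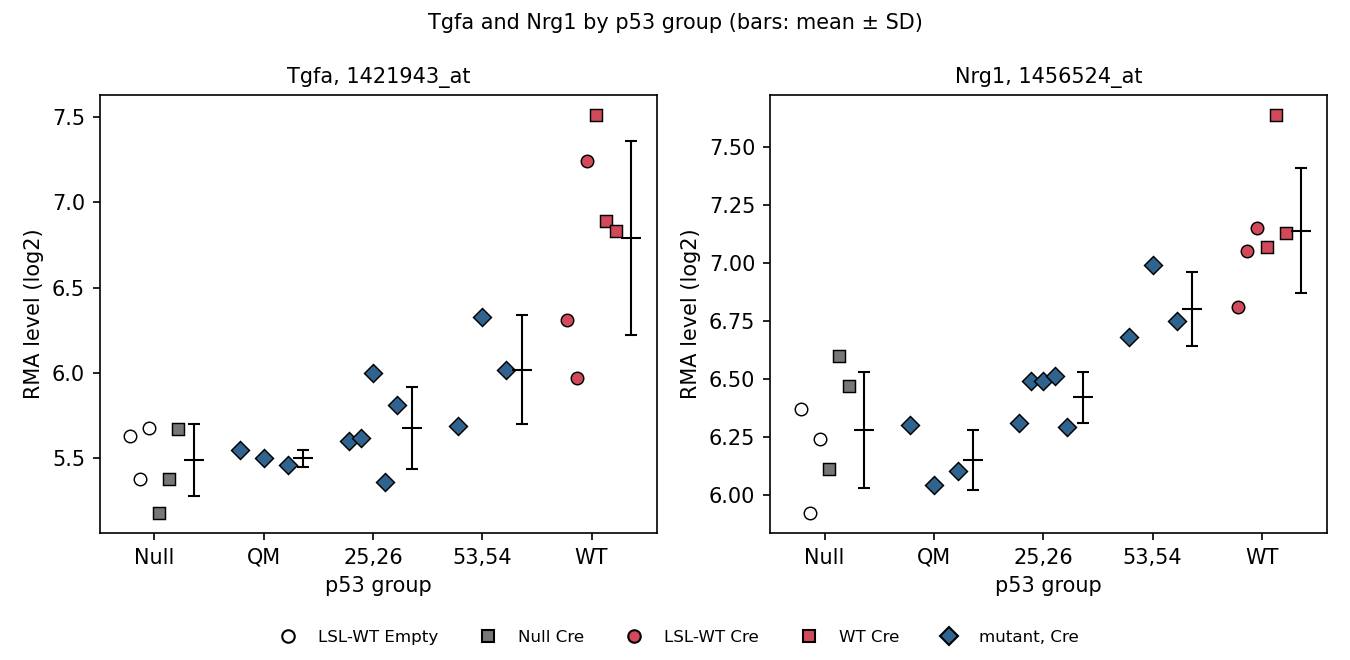
Log2 RMA level (vertical axes) of Tgfa 1421943_at and Nrg1 1456524_at in each array by p53 group (horizontal axes), with the group mean ± SD beside the points and the subgroups of Null and WT as separate symbols. All WT points lie above all Null points in both panels, and the 53,54 points lie between the Null and most WT points.

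The Tgfa level was higher in WT than in Null by 1.30 ± 0.19 (SE; 2.47-fold, 95% interval 0.90 to 1.71), with a limma adjusted p of 5.95e-05. Across the 11 alternative analyses that kept this probe set the difference was 1.02 to 1.38, and across the 12 analyses that left out 1 of the compared arrays it was 1.16 to 1.47, all past the threshold. Without WT replicate 6, whose labels disagree, it was 1.30. In bulk RNA like this, a change in the share of cells that make a transcript and a change in the amount per cell cannot be told apart.

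Nrg1 encodes neuregulin-1, whose EGF-like domain binds ERBB3 and ERBB4. The Null arrays had Nrg1 log2 levels of 6.37, 5.92 and 6.24 with Empty virus and 6.11, 6.60 and 6.47 in p53-null cells. The WT arrays had 6.81, 7.05 and 7.15 in LSL-WT cells and 7.07, 7.64 and 7.13 in WT cells. The lowest WT array stood above the highest Null array here too.

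The QM arrays had Nrg1 levels of 6.30, 6.04 and 6.10, the 25,26 arrays had 6.31, 6.49, 6.49, 6.51 and 6.29, and the 53,54 arrays had 6.68, 6.99 and 6.75. Every 53,54 array exceeded every Null, QM and 25,26 array. The 53,54 and WT ranges overlapped.

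The order of the Nrg1 group means was QM, Null, 25,26, 53,54 and WT, with log2 means of 6.15 ± 0.13 (SD, n = 3), 6.28 ± 0.25 (n = 6), 6.42 ± 0.11 (n = 5), 6.80 ± 0.16 (n = 3) and 7.14 ± 0.27 (n = 6), and the F test gave a limma adjusted p of 5.10e-05. In linear intensity the Nrg1 mean was 71.1 in QM, 78.9 in Null and 143 in WT, while array medians lay between 59.9 and 64.22. Nrg1 was read by 1 probe set. WT exceeded Null by 0.86 ± 0.12 (SE; 1.81-fold, interval 0.60 to 1.11, limma adjusted p = 3.37e-05). This difference was 0.62 to 0.88 over 13 alternative analyses and 0.76 to 0.92 over 12 with an array left out, past the threshold in each. Neighbours in the order of means were again not separated by the test.

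In WT against Null 3 of the 9 member probe sets were higher and 0 lower, where 8.15% of all probe sets tested were higher and 8.78% lower. The median difference of the 9 was 0.32, and that of all probe sets tested was -0.01. The third one higher was Hbegf 1418349_at.

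**Figure D2:**
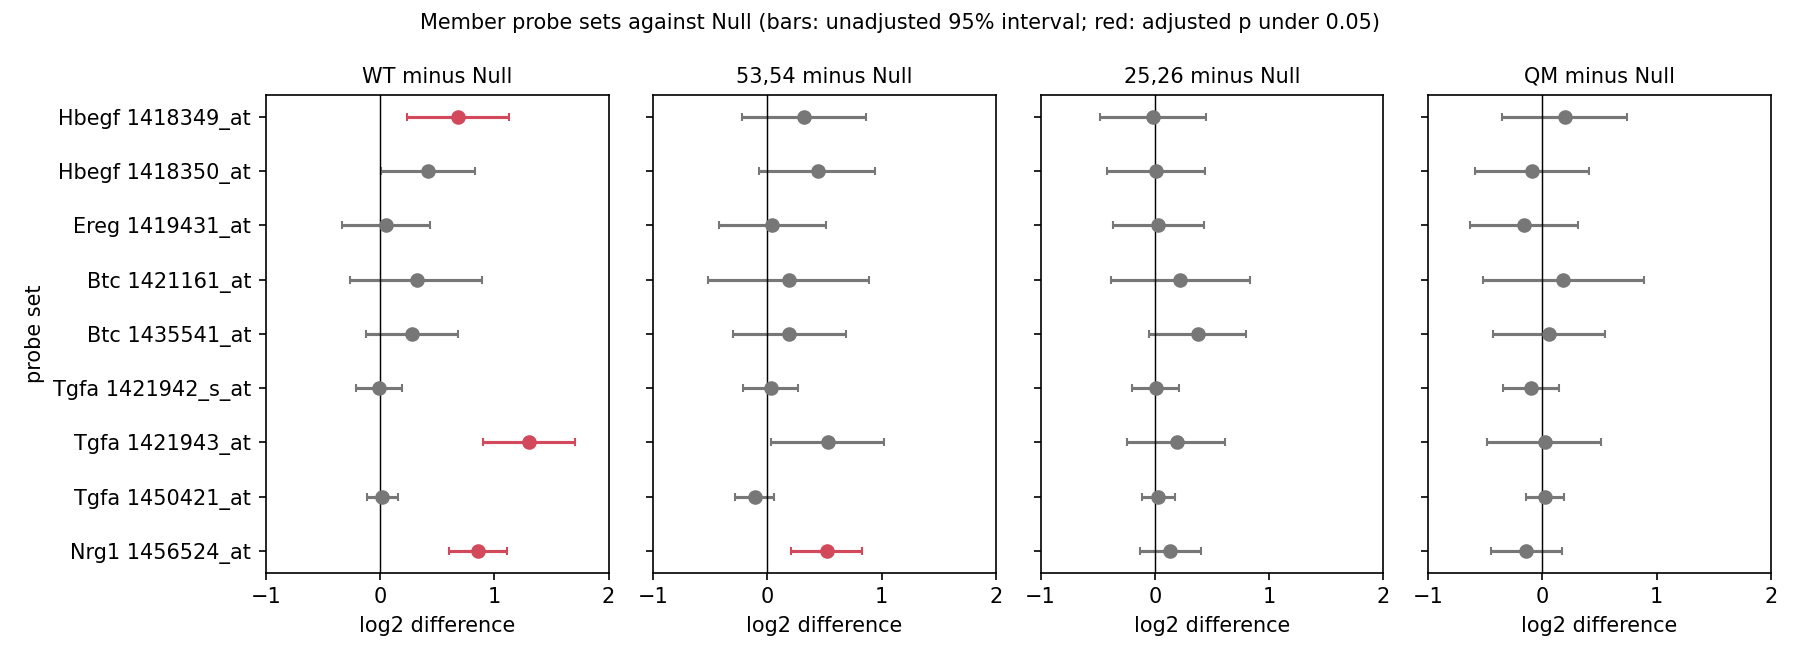
Log2 difference to Null (horizontal axes, with unadjusted 95% intervals) of the 9 member probe sets (vertical axis) in WT, 53,54, 25,26 and QM; red marks a limma adjusted p under 0.05. In WT 3 probe sets are red, in 53,54 Nrg1 alone is red, and in 25,26 and QM none is.

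The WT and Null groups each joined 2 kinds of culture, and both kinds were compared on their own. In LSL-WT cells with Cre against Empty virus, which sets the same allele switched on against silent, 2 of 9 probe sets were higher, Tgfa 1421943_at and Nrg1, where 3.58% of all probe sets were higher. Cre was present in only 1 of these arms, so Cre itself cannot be told apart from p53 within this comparison. Tgfa was higher by 0.94 ± 0.26 (1.92-fold, limma adjusted p = 0.0251) and Nrg1 by 0.83 ± 0.16 (1.77-fold, limma adjusted p = 0.00246). Between arrays of the same title number, Tgfa differed by 0.68, 0.59 and 1.56 and Nrg1 by 0.44, 1.13 and 0.91, so the Cre array was the higher one in each of the 3 pairs for both genes. The number 3 pair had the widest Tgfa gap. The SE and limma p-values given for LSL-WT cells, here and for the other members, come from a fit that did not use the pairs.

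The Tgfa call in LSL-WT cells ended without WT replicate 3 (0.57, limma adjusted p = 0.141), without Null replicate 1 (0.97, adjusted p = 0.0607) and without Null replicate 2 (0.85, adjusted p = 0.0957), and it ended when these arrays were fitted alone (0.94, adjusted p = 0.191). The Nrg1 call ended too when these arrays were fitted alone (0.83, limma adjusted p = 0.0544).

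**Figure D3:**
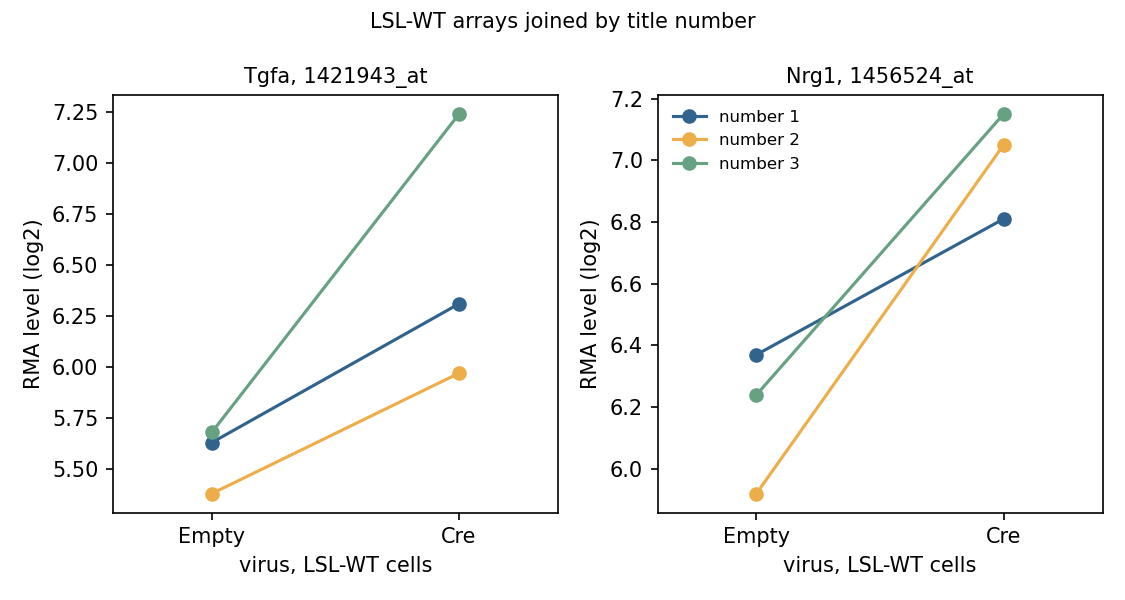
Log2 RMA level (vertical axes) of Tgfa 1421943_at and Nrg1 1456524_at in LSL-WT cells with Empty or Cre virus (horizontal axes), with lines joining arrays of the same title number. Each of the 3 lines rises in both panels, by 0.59 to 1.56 for Tgfa and by 0.44 to 1.13 for Nrg1.

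In cells with a constitutive genotype, WT with Cre against p53-null with Cre, the same 2 probe sets were higher, against 6.39% of all probe sets. Tgfa was higher by 1.67 ± 0.26 (3.18-fold, limma adjusted p = 2.70e-04) and Nrg1 by 0.88 ± 0.16 (1.84-fold, limma adjusted p = 0.00129). Without WT replicate 6 these were 1.79 and 0.96. The 3 WT arrays of this comparison had Xist above 8 and the 3 Null arrays had not, so these features cannot be told apart from p53 within it. With the Xist level as a covariate over all arrays the differences were 1.71 and 0.91. The Nrg1 call ended when the 6 arrays were fitted alone (0.88, limma adjusted p = 0.0592).

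The Tgfa difference was larger by 0.73 ± 0.36 between constitutive than between switched-on cells (limma adjusted p = 0.517), and the Nrg1 difference by 0.06 ± 0.23 (adjusted p = 0.988). No member passed this test of the difference, in which 0.0206% of all probe sets did and 0 members had an unadjusted p under 0.05.

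With the second activation domain changed, 1 of 9 probe sets was higher than in Null, where 7.11% of all probe sets were. This was Nrg1, by 0.52 ± 0.15 (1.43-fold, interval 0.21 to 0.83, limma adjusted p = 0.0199). The call ended without 53,54 replicate 3 (0.43, adjusted p = 0.147), with the p53-null arrays alone as Null (0.41, adjusted p = 0.146) and with the compared arrays fitted alone (0.52, adjusted p = 0.0556). Tgfa 1421943_at differed by 0.53 ± 0.24 (interval 0.03 to 1.02, limma adjusted p = 0.166), which missed the threshold. Its lowest 53,54 array was at 5.69 and its highest Null array at 5.68. With arrays weighted by their quality the difference was 0.71 (adjusted p = 0.00511), in a setting that raised the calls over all probe sets from 4956 to 9377.

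Against WT, no member probe set of 53,54 passed the test, in which 0.194% of all probe sets did. Unadjusted p-values under 0.05 were found for 2 of the 9 members and for 2069 of all probe sets. For Tgfa the difference was -0.78 ± 0.24 (interval -1.27 to -0.28, limma adjusted p = 0.361), and it passed without WT replicate 2 (-0.94, adjusted p = 0.0357). For Nrg1 the difference was -0.34 ± 0.15 (interval -0.64 to -0.03, limma adjusted p = 0.754).

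With the first domain changed, 0 of 9 probe sets passed against Null, where limma called 2.7% of all, and 0 members but 4545 of all probe sets had an unadjusted p under 0.05. Tgfa differed from Null by 0.19 ± 0.20 (interval -0.24 to 0.61) and Nrg1 by 0.13 ± 0.13 (interval -0.13 to 0.40). Against WT, 2 probe sets were lower in 25,26, with 2.22% of all probe sets lower. Tgfa fell by 1.11 (-1.11 ± 0.20, limma adjusted p = 0.00256), which was lost with the LSL-WT arrays alone as WT (-0.83, adjusted p = 0.0589), and Nrg1 fell by 0.72 (-0.72 ± 0.13, limma adjusted p = 0.00189).

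With both domains changed, 0 of 9 probe sets passed against Null, where limma called 0.0118% of all, and 0 members but 714 of all probe sets had an unadjusted p under 0.05. The difference from Null was 0.02 ± 0.24 for Tgfa (interval -0.48 to 0.51) and -0.14 ± 0.15 for Nrg1 (interval -0.45 to 0.17). Against WT 2 probe sets were lower, with 3.92% of all probe sets lower. Tgfa fell by 1.29 (-1.29 ± 0.24, limma adjusted p = 0.0012) and Nrg1 by 0.99 (-0.99 ± 0.15, limma adjusted p = 1.58e-04). Over all probe sets, blocking on the title number raised the calls of the F test from 5234 to 9662. The share called when QM against WT was so blocked is not given here. With this block Hbegf 1418349_at (-0.49, limma adjusted p = 0.0372) and Hbegf 1418350_at (-0.51, adjusted p = 0.0178) were also lower in QM than in WT. With 1 array left out and no block these were -0.30 to -0.59 and -0.36 to -0.63, none of them past the threshold. The comparisons of the mutants share the Null and WT arrays with each other and with WT against Null.

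The mutants were also set against each other. Nrg1 was higher in 53,54 than in QM by 0.66 ± 0.17 (limma adjusted p = 0.0156), the only one of the 9 that passed, where 4.24% of all probe sets were higher. This call ended without 53,54 replicate 3 (0.56, adjusted p = 0.0987), QM replicate 2 (0.61, adjusted p = 0.0682) or QM replicate 3 (0.63, adjusted p = 0.0539). Between 53,54 and 25,26, where 2.8% of all probe sets were called, limma called 0 of 9, with 1 member and 4141 probe sets at an unadjusted p under 0.05. There Nrg1 differed by 0.39 ± 0.15 (interval 0.07 to 0.71, limma adjusted p = 0.258) and Tgfa by 0.34 ± 0.25 (interval -0.17 to 0.85, adjusted p = 0.702), and with array weights both passed (0.50, adjusted p = 0.00315, and 0.61, adjusted p = 0.0184). Between 25,26 and QM, where 0.38% were called, limma again called 0 of 9, with 0 members and 2554 probe sets at an unadjusted p under 0.05, and Nrg1 differed by 0.27 ± 0.15 (adjusted p = 0.774).

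The 3 Tgfa probe sets differed in how much they varied. Over the 23 arrays, 1421942_s_at ranged from 5.32 to 5.88 and 1450421_at from 6.45 to 6.81 on the log2 scale. Their group means spanned 0.13 and 0.14, against 1.30 for 1421943_at. The WT difference to Null was -0.01 ± 0.10 (limma adjusted p = 0.971) for the first and 0.02 ± 0.07 (adjusted p = 0.892) for the second. Across the 23 arrays, which share the 5 p53 groups, their Pearson correlations with 1421943_at were 0.09 and 0.16. Which part of the transcript each probe set reads was not examined, so the Tgfa difference rests on 1 of 3 probe sets, and a gene summary that keeps the probe set with the highest mean (1450421_at) shows no Tgfa difference.

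Hbegf encodes HB-EGF, a heparin-binding ligand of the EGF receptor and ERBB4, and lies on chromosome 18. For 1418349_at the Null arrays had log2 levels of 11.13, 10.86 and 10.80 with Empty virus and 10.99, 10.74 and 10.29 in p53-null cells. The WT arrays had 11.51, 11.66 and 11.26 in LSL-WT cells and 11.15, 12.23 and 11.09 in WT cells. WT replicate 5 stood highest of all, and the lowest WT array lay below the highest Null array.

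WT exceeded Null for Hbegf 1418349_at by 0.68 ± 0.21 (1.61-fold, interval 0.24 to 1.13, limma adjusted p = 0.0293). The call ended without WT replicate 2 (0.65, adjusted p = 0.0599), WT replicate 5 (0.53, adjusted p = 0.0848), Null replicate 5 (0.67, adjusted p = 0.0539) or Null replicate 6 (0.58, adjusted p = 0.0797). It also ended with the Xist level as a covariate (0.60, adjusted p = 0.093), with p53-null arrays alone as Null (0.81, adjusted p = 0.0628), with LSL-WT arrays alone as WT (0.68, adjusted p = 0.0763) and without the arrays of title number 2 (0.51, adjusted p = 0.0846). Of the 7 arrays with title number 2, 6 lay above the mean of their subgroup, by 0.37 on average over the 7.

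The second Hbegf probe set, 1418350_at, ranged from 11.93 to 12.43 in Null with a median of 12.29, and from 12.16 to 13.26 in WT with a median of 12.75. Its WT difference to Null was 0.42 ± 0.20 (limma adjusted p = 0.178), and blocked on the title number it was 0.54 (adjusted p = 0.00221). Without the arrays of title number 2 it was 0.18 (adjusted p = 0.75), and with 1 array left out it was 0.30 to 0.52, lowest without WT replicate 5. The 53,54 arrays, at 12.75, 12.56 and 12.73, all lay above the Null arrays, with a difference of 0.44 ± 0.24 (limma adjusted p = 0.287). In this probe set 53,54 had the highest mean and QM the lowest, whereas in 1418349_at WT was highest and 25,26 lowest, and the correlation between the probe sets was 0.46 over 23 arrays and 0.28 within subgroups.

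The remaining Hbegf means for 1418349_at were 11.00 ± 0.32 (SD, n = 3) in QM, 10.78 ± 0.45 (n = 5) in 25,26 and 11.12 ± 0.46 (n = 3) in 53,54. Against WT, 25,26 differed by -0.70 ± 0.22 (limma adjusted p = 0.0793), and without 25,26 replicate 2 by -0.88 (adjusted p = 0.0205). For 1418350_at this difference was -0.40 ± 0.21 (limma adjusted p = 0.346), -0.50 when blocked on the title number (adjusted p = 0.0287) and -0.17 without 25,26 replicate 1 (adjusted p = 0.686). In LSL-WT cells Cre exceeded Empty for 1418349_at by 0.38, 0.80 and 0.46 in the 3 numbered pairs. The mean difference, 0.55 ± 0.31 in the fit that did not use the pairs, missed the threshold (limma adjusted p = 0.37). The constitutive comparison gave 0.82 ± 0.31 (limma adjusted p = 0.0945).

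Ereg encodes epiregulin, a ligand of the EGF receptor and ERBB4. Its log2 level lay between 10.82 and 11.91 in all 23 arrays, and every group overlapped with every other. The group means were 11.47 ± 0.41 in Null, 11.31 ± 0.28 in QM, 11.51 ± 0.28 in 25,26, 11.52 ± 0.25 in 53,54 and 11.53 ± 0.34 in WT (SD). WT differed from Null by 0.05 ± 0.18 (interval -0.33 to 0.44, limma adjusted p = 0.909). In LSL-WT cells the Cre array exceeded the Empty array in each numbered pair, by 0.11, 0.66 and 0.27. The parts of the WT comparison had opposite signs, 0.35 ± 0.24 in LSL-WT cells (limma adjusted p = 0.513) and -0.24 ± 0.24 in constitutive cells, and the difference between them was -0.59 ± 0.34 (limma adjusted p = 0.635).

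Btc encodes betacellulin, which also binds the EGF receptor and ERBB4. Its probe set 1435541_at ranged from 8.09 to 9.59 and 1421161_at from 5.86 to 7.90 over the 23 arrays, with a correlation of 0.70 between them. The WT difference to Null was 0.28 ± 0.19 (limma adjusted p = 0.407) for the first and 0.32 ± 0.28 (adjusted p = 0.541) for the second. In the LSL-WT pairs 1435541_at was higher with Cre by 0.60, 0.64 and 0.35, and 1421161_at differed by 0.56, 0.65 and -0.01. The mean difference of 1435541_at was 0.53 ± 0.28 in the fit that did not use the pairs (limma adjusted p = 0.314). The largest mean of 1435541_at was that of 25,26, at 0.38 ± 0.20 above Null (limma adjusted p = 0.457). Both WT extremes of 1421161_at came from WT cells, 7.90 in replicate 5 and 5.86 in replicate 6.

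**Figure D4:**
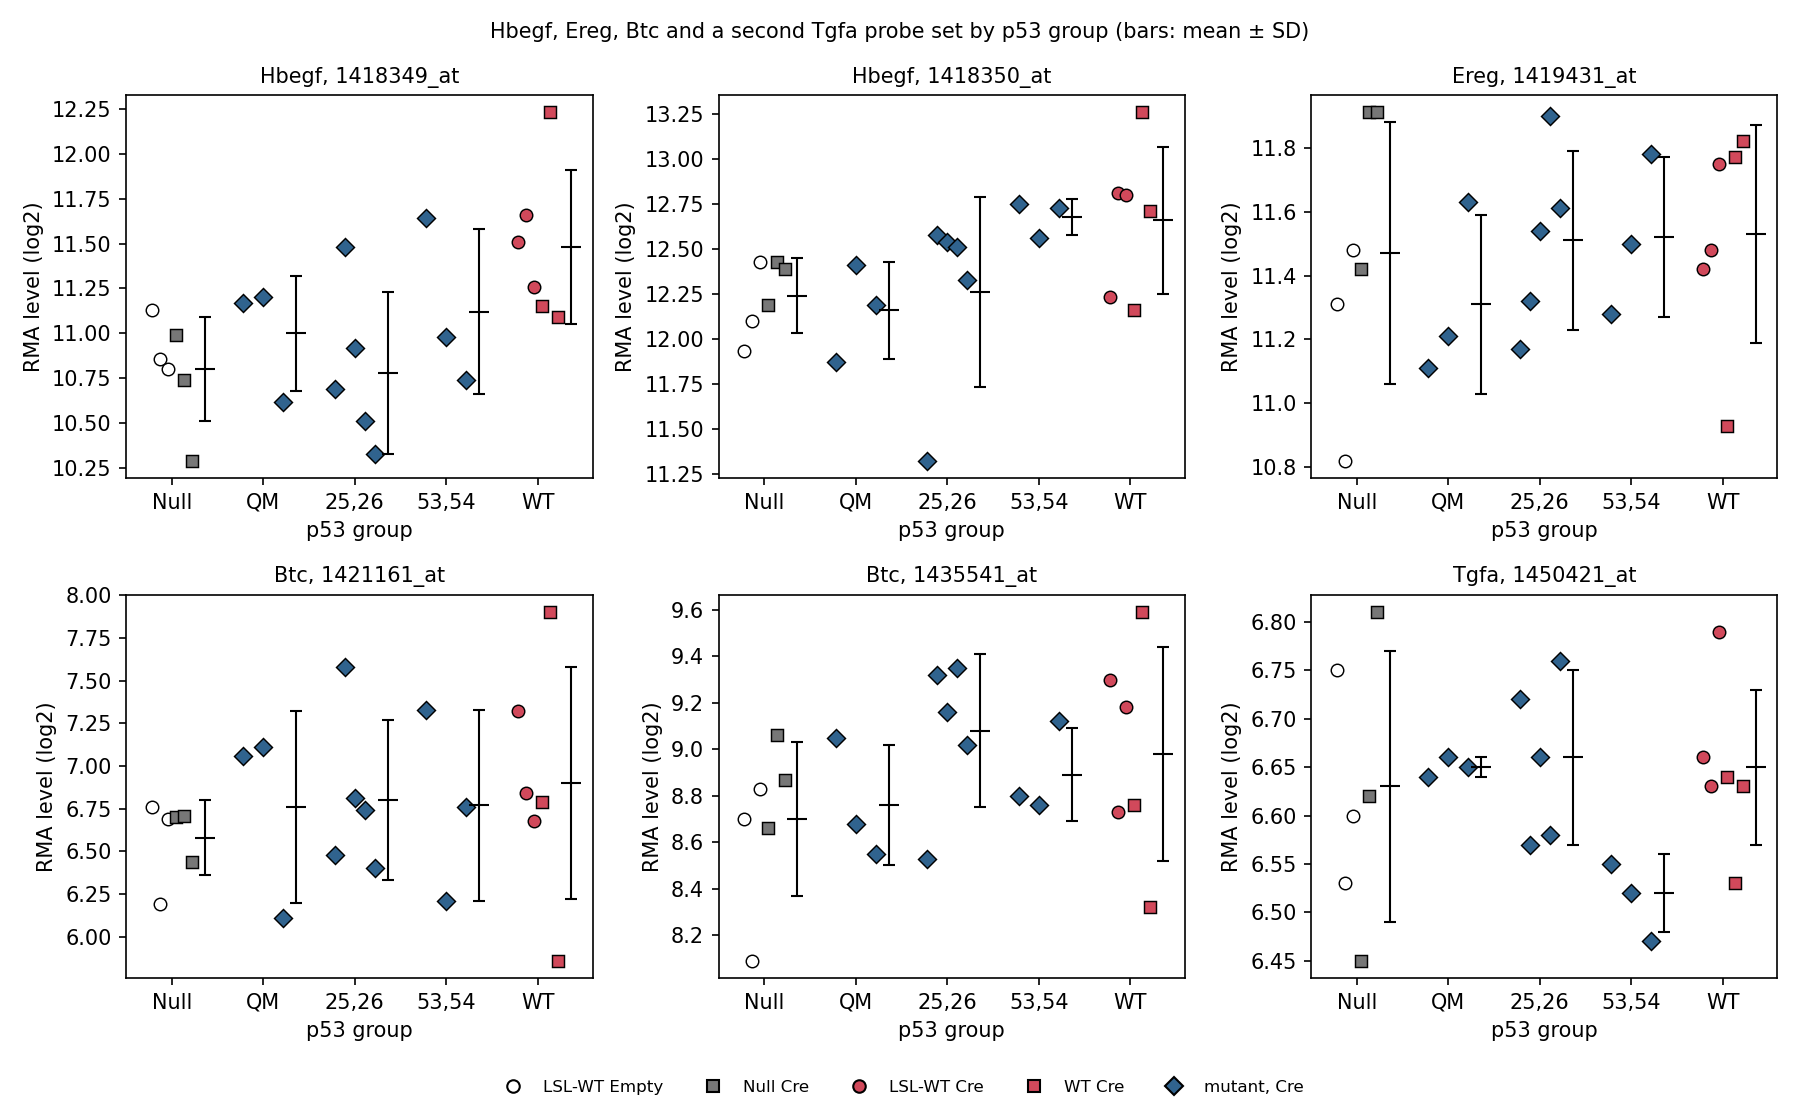
Log2 RMA level (vertical axes) of the Hbegf, Ereg and Btc probe sets and of Tgfa 1450421_at in each array by p53 group (horizontal axes), with the group mean ± SD beside the points. The groups overlap in the Ereg and Btc panels, and Tgfa 1450421_at stays between 6.45 and 6.81.

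All 9 probe sets lay above the filter level in all 23 arrays. Tgfa 1421943_at and Nrg1 were correlated at 0.82 over the arrays, which share the p53 groups, and at 0.22 within subgroups. Within subgroups the closest pair of members was Hbegf 1418349_at with Btc 1421161_at, at 0.82. In Tgfa 1421943_at all 7 arrays of title number 2 lay below the mean of their subgroup, by 0.22 on average (mean deviation -0.22).

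For each member the 3 genes with the most similar levels over the 23 arrays were sought by Pearson correlation, using the probe set with the highest mean. Nrg1 was most like Cystm1 (0.91), Ggct (0.91) and Atp6v0a2 (0.90). These had correlations of 0.74, 0.71 and 0.53 within subgroups. Ereg was most like Ptgs2 (0.86), the inducible cyclooxygenase, Mmp13 (0.82), a collagenase, and Rgs16 (0.80), a regulator of G-protein signalling, with 0.87, 0.80 and 0.83 within subgroups, so the likeness was as close among arrays of the same kind.

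Hbegf 1418350_at was most like Rnf11 (0.87), Secisbp2 (0.87) and Alcam (0.86), and Btc 1435541_at was most like Kcnq1 (0.76), Klhl1 (0.74) and Msx1 (0.73). The rule took Tgfa 1450421_at, which was most like Fcrls (0.74), 1700020L24Rik (0.74) and Exosc6 (0.72). For Tgfa 1421943_at, looked up after its values were seen, the closest were Syngr2 (0.90), Rasgrp3 (0.90), a Ras activator, and Ercc4 (0.89), a DNA repair nuclease, with 0.59, 0.70 and 0.54 within subgroups.

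The other genes of the pathway were taken in 7 lists of 54 genes, of which 52 had a probe set and 49 passed the filter, each represented by its probe set of highest mean. In WT against Null 4 of the 49 were higher and 0 lower: Egfr, Adam15, Cd44 and Dusp5. Over all probe sets tested 8.15% were higher, so the share of higher pathway genes was close to that of the whole array. In 53,54 against Null 1 was higher (Cd44), where 7.11% of all probe sets were, and 1 lower (Erbb2), where 7.49% were. Against Null limma called 0 of 49 in 25,26, where 2.7% of all probe sets were called, and 0 of 49 in QM, where 0.0118% were. Unadjusted limma p-values under 0.05 were found for 1 and 0 of the 49, and for 4545 and 714 of all probe sets.

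Of the 4 receptors, Egfr, the receptor of TGF-alpha, had mean log2 levels of 8.42 in Null, 8.26 in QM, 8.56 in 25,26, 8.78 in 53,54 and 8.75 in WT. WT exceeded Null by 0.33 ± 0.10 (limma adjusted p = 0.0321), and 3 of its 6 probe sets past the filter were higher, in a range of -0.08 to 0.74. In 53,54 against Null 2 of these 6 were higher, in a range of 0.04 to 1.10, but not the one that represented Egfr. Erbb2, the co-receptor without a ligand of its own, fell by 0.41 in 53,54 against Null (-0.41 ± 0.12, limma adjusted p = 0.0207), and in WT it differed by -0.09 ± 0.10. Erbb3, a receptor of neuregulin-1, differed by 0.05 ± 0.09 in WT, and Erbb4 lay between 3.67 and 4.10 in all arrays and did not pass the filter.

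Among the 8 sheddases and their iRhom regulators, Adam15 was higher in WT by 0.53 ± 0.16 (limma adjusted p = 0.0251), with 3 of its 4 probe sets higher. Of the 2 probe sets of Adam12, another sheddase, 1 was lower in 53,54 (-1.08), and the one that represented the gene was not called (-0.97, limma adjusted p = 0.117). Adam17, the main sheddase of TGF-alpha, differed by -0.21 ± 0.10 (adjusted p = 0.165) and Adam10 by 0.08 ± 0.11. Of 7 HB-EGF partners and heparan sulfate proteoglycans tested, Cd44, a cell-surface receptor whose variants can carry HB-EGF, was higher in WT by 0.45 ± 0.15 (limma adjusted p = 0.0402) and in 53,54 by 0.55 ± 0.18 (limma adjusted p = 0.0473). All 3 Cd44 probe sets past the filter were higher in WT (0.45 to 0.88) and 2 of them in 53,54, where the range was 0.55 to 0.65. Of the 4 probe sets of Sdc1, the proteoglycan syndecan-1, 1 was higher in WT and 1 in 53,54, but not the one that represented it (0.23 and 0.35).

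Among 11 ERK feedback genes and targets, Dusp5, a nuclear phosphatase of ERK, was higher in WT by 0.61 ± 0.18 (limma adjusted p = 0.0226), and the list's median difference was -0.01. Dusp6, which acts on cytoplasmic ERK, differed by -0.01 ± 0.22 and Egr1 by -0.19 ± 0.33. The 6 adaptors (median 0.17) and the 11 receptor inhibitors (median -0.14), such as Errfi1 (-0.14 ± 0.12) and Lrig1 (-0.29 ± 0.18), had none called in WT. Of the inhibitors' other probe sets, 1 of 3 of Cblb was higher in WT and 1 of 3 of Socs4 lower in 53,54. Of the other ligands Epgn differed by 0.01 ± 0.09, Nrg2 by -0.03 ± 0.09 and Nrg4 by 0.20 ± 0.07 (limma adjusted p = 0.059), and Egf and Nrg3 did not pass the filter.

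**Figure D5:**
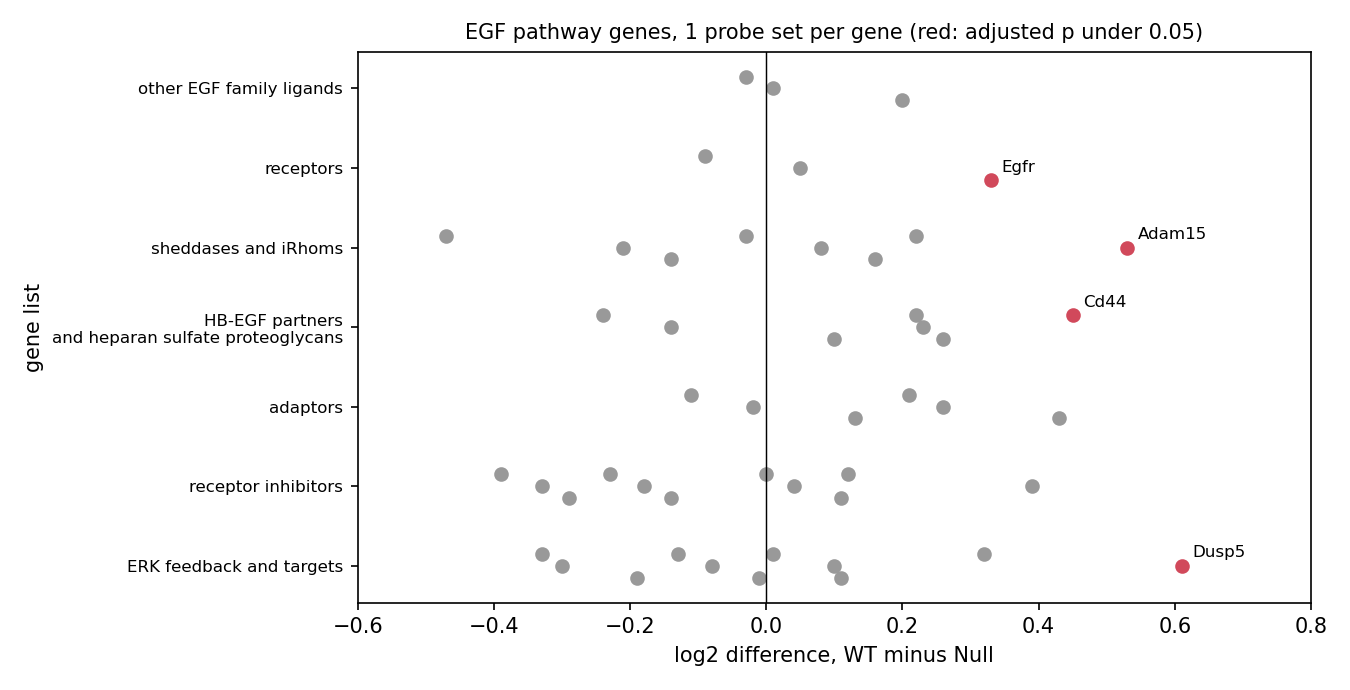
Log2 difference of WT minus Null (horizontal axis) for the 49 pathway genes past the filter, by gene list (vertical axis); red marks a limma adjusted p under 0.05. Egfr, Adam15, Cd44 and Dusp5 are red, at 0.33 to 0.61, and no gene with a negative difference is red.

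Each of these pathway calls, made on the probe set that represented the gene, was lost in at least 1 analysis with an array left out. With the p53-null arrays alone as Null the limma adjusted p was 0.403 for Egfr, 0.125 for Adam15, 0.165 for Cd44 and 0.0547 for Dusp5 in WT and 0.0511 for Erbb2 and 0.148 for Cd44 in 53,54. The 4 WT calls were also lost with the Xist level as a covariate (adjusted p of 0.0953, 0.102, 0.0875 and 0.0576) and with the compared arrays fitted alone. In WT against Null the largest limma adjusted p over 12 such analyses was 0.0864 for Egfr, 0.0688 for Adam15, 0.103 for Cd44 and 0.0665 for Dusp5, with differences of 0.27 to 0.41, 0.40 to 0.61, 0.36 to 0.55 and 0.49 to 0.72. In 53,54 against Null the largest over 9 was 0.112 for Erbb2 and 0.277 for Cd44. The arrays whose loss ended a call were WT replicates 2, 4 and 5 and Null replicates 1, 2 and 3 for Egfr, and WT replicates 2 and 5 and Null replicates 3 and 6 for Adam15. They were WT replicates 3, 5 and 6 and Null replicates 1, 2, 4 and 5 for Cd44, WT replicates 2 and 5 and Null replicates 1 and 4 for Dusp5, and 53,54 replicates 2 and 3 for Erbb2. For Cd44 in 53,54 they were 53,54 replicates 2 and 3 and Null replicates 1, 2, 4, 5 and 6.

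Single markers of other cell types were higher in groups in which Tgfa or Nrg1 was higher, and the median of each such list differed from Null by at most 0.14 in WT and in 53,54. The mean log2 level of the 9 epithelial markers was 6.29 to 6.65 in Null, 6.50 to 6.87 in QM, 6.52 to 6.95 in 25,26, 6.97 to 7.17 in 53,54 and 6.85 to 7.25 in WT. The median difference of the 9 to Null was 0.05 in WT, 0.00 in 53,54, 0.07 in 25,26 and 0.24 in QM. Of the 9, Dsp and Krt18 were higher in WT than in Null (3.10 ± 0.42 and 0.90 ± 0.28, limma adjusted p = 2.16e-05 and 0.0255), where 8.15% of all probe sets were. Both were also higher in 53,54 (3.40 and 1.10), where 7.11% of all probe sets were. Cdh1 (0.90 ± 0.46, adjusted p = 0.222), Epcam (0.05 ± 0.08), Krt5 (0.00 ± 0.11) and Krt14 (-0.19 ± 0.11) were not called.

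The mean of the 9 fibroblast markers was 12.54 to 13.63 in Null and 11.82 to 12.70 in WT. Of these, 5 were lower in WT (Col3a1, Pdgfra, Pdgfrb, Dcn and Lum), where 8.78% of all probe sets were. The median difference of the 9 to Null was -0.83 in WT, -0.65 in 53,54, -0.39 in 25,26 and -0.25 in QM, with 0 called in the mutants. Of all probe sets 7.49% were lower and 7.11% higher in 53,54, and limma called 2.7% in 25,26 and 0.0118% in QM. Of 8 macrophage markers 7 had a probe set and 5 passed the filter, Ptprc and Itgam being the ones that did not. Cd68, a lysosomal protein, was higher in WT (1.25 ± 0.31, limma adjusted p = 0.00588), where 8.15% of all probe sets were. Cd68 and Cd14 were higher in 53,54 (1.86 ± 0.37 and 0.95 ± 0.24, limma adjusted p = 0.00128 and 0.0086), where 7.11% were. The median difference of the 5 was 0.06 in WT and 0.03 in 53,54, and of the endothelial and Schwann or neural markers none was called in either. The part of these marker levels in the Tgfa and Nrg1 differences was not tested.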

How the data were processed

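The authors deposited 1 intensity per probe set and array on a linear scale, made with RMA per the submitters' processing notes. Its version and options are not given in the sources used here. The 64 control probe sets were left out and log2 was taken. Of 45037 probe sets, 34945 had 1 gene symbol in GEO's platform annotation, 932 had several and 9160 were not listed. The filter kept 33942 probe sets with at least 3 arrays above the 30th percentile (log2 4.79). A 5-group means model was fitted to all 23 arrays with limma 3.58.1 in R 4.3.3 (moderated two-sided tests, Benjamini-Hochberg adjustment over all probe sets past the filter, threshold 0.05), and a 7-subgroup model gave the parts of WT against Null. The scripts were tested on simulated data. Precision is limited by having 3 to 6 arrays in a group.

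The members and all lists were chosen with earlier results of these data known. Every member probe set was named. So were, per list, up to 4 genes past the threshold in WT against Null, all receptors and other ligands, and the 3 genes most like each member. Further pathway genes, the comparisons between mutants and the genes like Tgfa 1421943_at were chosen after their values were seen. Same-numbered arrays were judged from their residuals to be paired, but the main models did not use the pairs. The title number entered only in the other settings listed below. In WT against Null 10 of 10 same-number correlations were over 0.1 (median 0.45, against -0.22 for other numbers), and in LSL-WT cells they were 0.71 to 0.81. WT Cre and Null Cre shared only 2 numbers, too few to call them paired.

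Other settings tried were 1 probe set per gene, no filter, a filter at the median of the mean levels, quantile normalization, median centring, strain, Xist level or title number as a covariate, array weights, compared arrays alone, subgroups alone as Null or WT, each array left out and, added after seeing the data, the arrays of title number 2 left out. The transcripts of Trp53 and Hras, which would check the labels, are not analysed here.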

Additional observations from a re-analysis of the deposited data

Results flagged for a closer look

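In Hbegf 1418350_at, 25,26 replicate 1 had a log2 level of 11.32, while the next array of its group was at 12.33 and the highest at 12.58. Without this array the difference of 25,26 to WT moved from -0.40 to -0.17 (limma adjusted p of 0.346 and 0.686). The gap to the next array was 0.81 of the group's range. This was 1 flag among 27 groups of member values examined for a distant array, where chance flags about 1 in 20 groups.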

How the results depend on the processing

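Counts of called member probe sets out of 9 depended on the processing as follows. With a mean above the median, which tests 7 of the 9 and drops Tgfa 1421943_at, limma called 1 in the F test and in 25,26 against WT, QM against WT, LSL-WT Cre against Empty and WT Cre against Null Cre. With 1 probe set per gene, which tests 5, it called 1 in each of these and in WT against Null. The title number as a replicate block gave 3 in 25,26 against WT and 4 called in the F test, WT against Null, QM against WT and WT Cre against Null Cre. In the last it added both Hbegf probe sets: 1418349_at at 0.66 (adjusted p = 0.0264; 0.82 without the block, adjusted p = 0.0945, and 0.45 to 1.02 with 1 array left out) and 1418350_at at 0.64 (adjusted p = 0.0176; 0.38 without the block, adjusted p = 0.474, 0.10 to 0.65 with 1 array left out, and 0.03 without title number 2, adjusted p = 0.977). The block ended no member call, and over all probe sets it raised the calls in WT against Null from 5746 to 9312. Its calls over all probe sets in 25,26 against WT, QM against WT and WT Cre against Null Cre are not given here. Array weights gave 2 in 53,54 against Null, against 25,26 and against QM, and added Hbegf 1418349_at, for 3 in all, in the F test (adjusted p = 0.0185), 25,26 against WT (-0.84, adjusted p = 0.00718) and WT Cre against Null Cre (0.72, adjusted p = 0.0436). Over all probe sets the weights raised the calls in the F test from 5234 to 9321 and in 53,54 against Null from 4956 to 9377. The compared arrays alone gave 0 in 53,54 against Null, 0 in LSL-WT Cre against Empty and 1 in WT Cre against Null Cre. Null Cre arrays alone as Null gave 0 in 53,54 against Null, LSL-WT Cre arrays alone as WT gave 1 in 25,26 against WT, and leaving out title number 2 gave 1 in LSL-WT Cre against Empty (Tgfa 1.12, adjusted p = 0.0502). With 1 array left out the count was 2 to 3 in the F test, in WT against Null and in 25,26 against WT, 0 to 1 in 53,54 against Null, against WT and against QM, 2 in QM against WT and in WT Cre against Null Cre, 1 to 2 in LSL-WT Cre against Empty, and 0 in the other comparisons. No called value changed sign under any alternative. Quantile normalization, median centring (which moved the median of all probe sets by at most 0.04), strain and no filter changed no member call. They did change calls of Cd44: 0.44 (adjusted p = 0.0506) in WT under quantile normalization and, in 53,54, an adjusted p of 0.057 without the filter and with strain and of 0.0535 with median centring. A further 97 pairs of probe set and comparison were never called in any analysis. The signal of Tgfa in Null, near the filter level, and groups of 3 arrays limit what could be detected.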
